A study of Mus musculus with 2 samples.

Results

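CTCF binding was examined at the 10 mouse genes that encode the MCM and GINS parts of the replicative helicase, Mcm2 to Mcm7 and Gins1 to Gins4. They are 10 of 21938 protein-coding genes of the GENCODE M21 annotation. Every peak of the optimal list whose summit lay in one of these genes or within 20 kb of it was taken, and this gave 39 of the 57197 peaks on assembled chromosomes. The genes were picked with the strong deposited signals at Gins4, Mcm5 and Mcm2 already known, and were chosen by these measured signals. The signals are therefore a description and were not tested. The measurements come from ChIP-seq with an antibody to CTCF. This DNA-binding protein has many zinc fingers, recognises a motif that has a direction, and together with cohesin holds the ends of chromatin loops. The tissue was liver of B6NCrl mice at postnatal day 0, pulverized and pooled over dissections, with no treatment and no sex recorded. There was 1 group with 2 replicates, and the labels give both the same biosample and donor, which means that their differences may be technical only. Peak lists hold no RNA, so the tissue label was not checked against marker genes. Liver at birth holds both hepatocytes and blood-forming cells, and the lists do not tell them apart.

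The MCM proteins form a ring that is loaded onto origins of replication in G1 phase by the origin recognition complex, CDC6 and CDT1. At the start of S phase the ring is joined by CDC45 and by the GINS complex, in which Gins4 encodes the subunit SLD5 and Gins1, Gins2 and Gins3 encode PSF1, PSF2 and PSF3. The assembled helicase unwinds DNA at the fork, and its genes are known as targets of E2F factors that are transcribed in dividing cells.

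The strongest sites near these genes are shown first because the results turn on them. Each line gives 30 bases around the best match to the 14-base CTCF core, read on the strand of the core, with the core in capitals. Positions are on mm10, and the bases were read from the RefSeq GRCm38.p6 genome.
Gins4 promoter peak, 2 mismatches (chr8:23237877-23237906, minus strand): ccgattcgCCACAAGACGGCGCtgcctggt
Mcm2 internal start, no mismatch (chr6:88893747-88893776, minus strand): atataccaCCAGCAGGTGGCGCtgtggatg
Mcm2 upstream peak in Tpra1, 1 mismatch (chr6:88906947-88906976, minus strand): gccgttgaCCACAAGATGGCAGtagaaaga
Mcm2 far upstream peak, no mismatch (chr6:88916312-88916341, minus strand): tgtaatgaCCACCAGAGGGCAGcaaaggat
Mcm7 downstream peak at Zfp113, 1 mismatch (chr5:138155880-138155909, minus strand): caacctggCCAGCAAGTGGCGCagtctggt
Gins2 downstream peak in Gse1, 2 mismatches (chr8:120570480-120570509, plus strand): ggaaggagCCACAGGGGGGCAGcagcacag
Gins2 upstream peak at 6.86 kb, 1 mismatch (chr8:120596159-120596188, plus strand): tgctctgtCCACTAGAGGGCAAagaaaacc
Gins2 upstream peak at 18.8 kb, 2 mismatches (chr8:120608088-120608117, minus strand): gacagaggCCAGAAGAGGGCAAtggatccc
Gins2 upstream peak at 10.4 kb, 1 mismatch (chr8:120599727-120599756, minus strand): agaagaggCCAGAAGAGGGCACcatatccc
The last pair of Gins2 sites was the most alike of all pairs among the 11 strongest sites, with 23 of 30 bases and 13 of the 14 core bases identical. Both strong peaks at Mcm5 lacked a core with 2 or fewer mismatches. For these and for the strongest promoter peak, the 101 bases centred on the summit are given below, with the best match in capitals. At the Mcm5 promoter that match has 3 mismatches and is 1 of 3 equally good ones.
Mcm5 promoter peak (chr8:75108675-75108775, plus strand): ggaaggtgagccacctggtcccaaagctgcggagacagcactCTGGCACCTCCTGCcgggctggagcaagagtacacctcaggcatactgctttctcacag
Mcm5 downstream peak (chr8:75132620-75132720, plus strand): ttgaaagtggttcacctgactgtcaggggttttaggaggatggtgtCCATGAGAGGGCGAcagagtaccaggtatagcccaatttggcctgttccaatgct
Gins4 promoter peak (chr8:23237822-23237922, plus strand): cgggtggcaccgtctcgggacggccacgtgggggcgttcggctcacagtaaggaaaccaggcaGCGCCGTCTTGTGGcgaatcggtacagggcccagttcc

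A promoter peak, meaning a summit within 1 kb of any annotated start of the gene, was found at 7 of the 10 genes: Mcm2, Mcm5, Mcm6, Mcm7, Gins1, Gins2 and Gins4. The share among all protein-coding genes was 36.2%, and among genes with a CpG-rich 5' end, a class that holds 7 of the 10, it was 53.8%. Mcm3, Mcm4 and Gins3 had none. These 3 are in the CpG-rich class, and with them Mcm5, Mcm6, Gins2 and Gins4, which had a promoter peak. Mcm2, Mcm7 and Gins1 are outside it, so 7 of 10 and 53.8% do not compare like genes. With starts restricted to the 5' end of the gene the count was 6 of 10, against 28.3% of all protein-coding genes, because the Mcm2 peak lies at an internal start. The 7 genes split by signal. Gins4, Mcm5 and Mcm2 had promoter peaks in the strongest 20% of the list (signal of 219.0 or more), as did 8.60% of protein-coding genes, while the strongest promoter peaks of the other 4 ran from 18.9 to 60.9.

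Gins4 (ENSMUSG00000031546.6, chr8:23226616-23237659, minus strand) carried the strongest of the 39 peaks. It lay 213 bp upstream of the gene's only annotated start, in intergenic sequence on chromosome 8 from 23237678 to 23238053, and at 376 bp it was wider than the median peak of 284 bp. Its signal was 640.6 in the optimal list, 336.0 in replicate 1 and 309.3 in replicate 2, and it ranked 9 of 57197, 5 in replicate 1 and 14 in replicate 2. At all 39 peaks the signal of the optimal list equals that of the pooled list, and at the strong ones it is near the sum of the replicate values, not their mean. By promoter signal Gins4 stood at position 5 of the 7943 genes with a promoter peak. Comtd1 (647.1) and Iqsec1 (642.8) stood directly above it, and Med4 (627.7) and Top1mt (609.7) directly below. The replicate values of Gins4 overlapped those of each of these neighbours, so their order is within the spread of the replicates. Med4, which encodes a Mediator subunit, had 312.8 in replicate 1 and 317.0 in replicate 2. The Gins4 gene had 4 further peaks in its window. A weak peak 341 bp inside intron 1 had 35.1 (26.4 in replicate 1 and 8.11 in replicate 2) and was not in the conservative list. The others had 39.3 at 1.44 kb upstream, 202.2 at 5.28 kb upstream in intron 5 of the neighbour Golga7, and 41.0 in intron 4 of Gins4.

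Mcm5 (ENSMUSG00000005410.6, chr8:75109569-75128439, plus strand) had the next strongest promoter peak, 844 bp upstream of the 5' end, on chromosome 8 from 75108584 to 75108855. Its signal was 399.7, with 183.0 in replicate 1 and 217.1 in replicate 2. This was the lowest replicate 1 to replicate 2 ratio among the strong peaks near these genes, -0.25 on the log2 scale, and it lies outside the 5th to 95th percentile range of the strongest 20% of all peaks, -0.16 to 0.27. A second strong peak lay 4.23 kb past the 3' end of the gene, with 251.5 in the optimal list, 121.8 in replicate 1 and 129.5 in replicate 2. The gene therefore stood between strong peaks, both without the core at 2 or fewer mismatches. The remaining peak in the window, with 17.3, lay in the 5' UTR of Hmox1, 26 bp from a start of that heme oxygenase gene.

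Mcm2 (ENSMUSG00000002870.8, chr6:88883474-88898780, minus strand) had its promoter peak in intron 2, 31 bp from an internal transcript start and 5.02 kb from the 5' end, on chromosome 6 from 88893623 to 88893890. Its signal was 359.4, with 177.8 in replicate 1 and 180.9 in replicate 2. In both replicates it was below the Mcm5 promoter peak, but its higher value of 180.9 was close to the lower Mcm5 value of 183.0. With 2 replicates of the same biosample and donor labels, this order was not tested. No summit lay within 1 kb of the 5' end of Mcm2. Of 7 peaks in the window, 2 upstream peaks had higher signals than this one in both replicates. The peak at 8.18 kb upstream had 397.1 (196.2 in replicate 1, 202.3 in replicate 2) and lay in intron 2 of the neighbouring gene Tpra1, 919 bp from a start of it. The peak at 17.5 kb upstream had 370.4 (189.3 in replicate 1, 182.5 in replicate 2) and was intergenic. The remaining 4 peaks had signals of 8.24 to 56.7. A pair of these near the Tpra1 start overlapped each other. By summits within 100 bp, the one with 24.3 was matched in replicate 1 alone and the one with 8.24 in replicate 2 alone.

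Mcm7 (ENSMUSG00000029730.16, chr5:138164583-138172422, minus strand) had weak promoter peaks and a strong peak downstream. Its gene hosts the microRNAs Mir25, Mir93 and Mir106b, and its 5' end overlaps that of Ap4m1, which encodes a subunit of the AP-4 adaptor complex. The peak in the 5' UTR shared by the pair, 85 bp from a start of Ap4m1, had 33.6 (20.98 in replicate 1, 14.4 in replicate 2). A peak 70 bp from an internal start of Mcm7 had 60.9 (29.5 in replicate 1, 30.0 in replicate 2). The downstream peak, 8.70 kb past the 3' end, had 417.2 (215.6 in replicate 1, 202.8 in replicate 2) and lay 142 bp from a start of the zinc finger gene Zfp113. It was the strongest peak in the windows after that of Gins4, and its nearest start belongs to another gene. The fourth peak in the window, 63 bp from a start of the signalosome gene Cops6, had 9.08. It was matched within 100 bp in replicate 1 alone, with 6.96.

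Gins2 (ENSMUSG00000031821.11, chr8:120578633-120589304, minus strand) lay among dense peaks. Its window held 9, which is 17.8 per 100 kb and the 98.6th percentile of protein-coding genes. Only 1 of them was a promoter peak, 200 bp upstream, with 39.9 in the optimal list, 24.6 in replicate 1 and 15.2 in replicate 2. That summit was 27 bp from a start of the noncoding gene Gm10614 on the other strand. Upstream, peaks at 5.51, 6.86, 10.4 and 18.8 kb had 142.5, 337.5, 272.3 and 330.6, and all lay in an intron of Gm20388, a gene model that spans the whole window. The peak of 142.5 carried a core without a mismatch. Downstream, 4 peaks lay in Gse1, of which the strongest, in intron 8, had 364.5 (198.4 in replicate 1, 167.9 in replicate 2), and the others had 34.2, 76.9 and 162.9. The peak of 76.9 lay in coding exon 11 of Gse1. The promoter peak of Gins2 was thus weaker than every upstream peak in its window.

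Gins1 (ENSMUSG00000027454.10, chr2:150905400-150931280, plus strand) and Mcm6 (ENSMUSG00000026355.11, chr1:128331590-128359664, minus strand) had weak promoter peaks. At Gins1, summits 428 and 912 bp upstream had 34.7 and 12.5. The first had 12.9 in replicate 1 and 17.3 in replicate 2, and the second 4.81 and 7.38. Both were nearer to starts of Abhd12, the lipase gene on the other strand, at 231 and 159 bp, and the weaker one lay in the first coding exon of Abhd12. At Mcm6 a summit in intron 1, 321 bp from the 5' end, had 18.9 (11.7 in replicate 1, 6.57 in replicate 2) and was missing from the conservative list. The stronger peaks near Mcm6 lay upstream in introns of Dars, the aspartyl-tRNA synthetase gene, with 171.2 at 9.24 kb (84.5 in replicate 1, 85.9 in replicate 2) and 107.4 at 12.7 kb (62.1 in replicate 1, 45.1 in replicate 2). Weak peaks lay in intron 7 of Mcm6 (25.8) and, past its 3' end, in intron 1 of the lactase gene Lct (23.2). The third Gins1 peak, in intron 5, had 15.0, with 10.1 in replicate 1 and 5.26 in replicate 2. Among the promoter peaks the order Gins4, Mcm5, Mcm2, Mcm7 was the same in both replicates, while Gins2 and Gins1 changed places between them.

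The genes without a promoter peak had 0 to 2 peaks in their windows. Gins3 (ENSMUSG00000031669.10, chr8:95633453-95645060, plus strand) had none in its window. At least 1 was held by the windows of 9 of the 10 helicase genes, 80.8% of protein-coding genes and 95.6% of those with a CpG-rich 5' end. The peak nearest to Gins3 lay 26.6 kb upstream with a signal of 20.5 and was matched within 100 bp in replicate 1 alone. Mcm4 (ENSMUSG00000022673.5, chr16:15623897-15637400, minus strand) had 1, a peak of 21.4 (11.8 in replicate 1, 9.08 in replicate 2) at 14.8 kb past its 3' end, 2 bp from the start of the pseudogene Gm7748. Mcm4 shares its 5' end region with Prkdc, which encodes the catalytic subunit of DNA-dependent protein kinase, and no optimal summit marked that shared promoter within 1 kb of an Mcm4 start. Mcm3 (ENSMUSG00000041859.10, chr1:20802968-20820312, minus strand) had 2 peaks, 1.06 kb past its 3' end with 104.0 (63.2 in replicate 1, 41.5 in replicate 2) and 12.3 kb upstream with 20.9. The pooled list, which runs down to very weak calls, did hold a summit within 1 kb of a start at all 10 helicase genes. It held one at 69.4% of protein-coding genes and at 92.5% of those with a CpG-rich 5' end. At Gins3 that summit had 7.27, with 4.64 in replicate 1 and 4.12 in replicate 2. At Mcm4 the strongest had 6.84 and lay 1231 bp inside the gene, and the strongest of each replicate list were other calls, at -219 bp from the 5' end in replicate 1 (5.73) and at -624 bp in replicate 2 (5.10). At Mcm3 the only one, at an internal start, had 6.68 (3.64 in replicate 1, 3.70 in replicate 2). All 3 values lie in the range of the weakest 20% of optimal peaks (26.1 or less), and whether they mark binding was not tested.

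**Figure D1:**
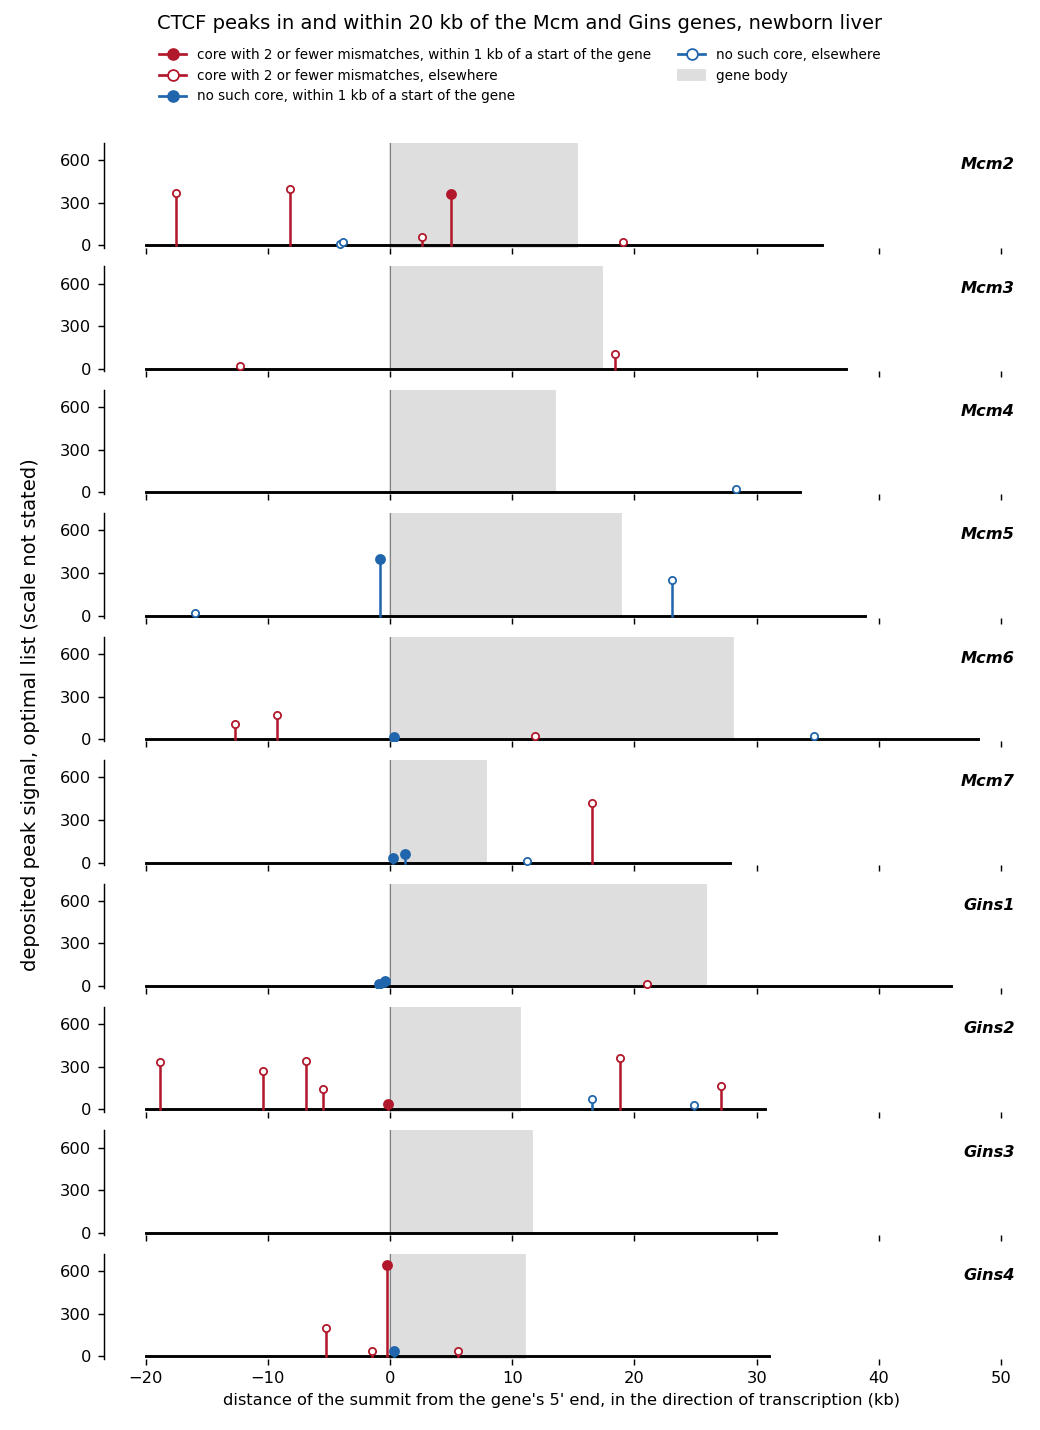
Peaks of the optimal list in and within 20 kb of each of the 10 genes. The horizontal axis is the distance of the summit from the gene's 5' end in kb, in the direction of transcription, and the vertical axis is the deposited signal; grey marks the gene body, the black line the window, red a core with 2 or fewer mismatches within 50 bp of the summit, blue no such core, and filled circles summits within 1 kb of a start of the gene. Gins4 has the highest peak (640.6), Gins2 the most peaks (9), and Gins3 none.

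Set against the whole list, the 39 peaks were spread toward both ends of the signal range. Of them 11 were in the strongest 20%, which is 20% of the whole list by construction, and 12 were in the weakest. Their median signal was 56.7, against 71.2 for all optimal peaks, and the range was 8.24 to 640.6. The 11 strong peaks lay at 5 genes, with 4 at Gins2, 3 at Mcm2, 2 at Mcm5, and 1 each at Mcm7 and Gins4. Of these 11, 3 were promoter peaks of a helicase gene, and 16.4% of all peaks in the strongest 20% were promoter peaks of a protein-coding gene. The 10 promoter peaks had a median of 37.5, against 56.3 for the 9766 promoter peaks of all protein-coding genes. By place, 19 peaks lay upstream of their gene (median 142.5), 9 inside (35.1) and 11 downstream (76.9). Of the 29 peaks that were not promoter peaks of a helicase gene, 9 lay within 1 kb of a start of another gene.

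Pooled, the windows held 6.96 peaks per 100 kb, against 4.06 over the windows of all protein-coding genes and 4.63 over those of genes with a CpG-rich 5' end. Taken gene by gene, the median density was 6.22 per 100 kb for the helicase genes, 5.23 for genes with a CpG-rich 5' end and 4.13 for all. The median number per window was 3.5 for the helicase genes, 4 for genes with a CpG-rich 5' end and 3 for all, and the counts were highest at Gins2, with 9 peaks, and at Mcm2, with 7. Promoters with 2 summits were found at 3 genes, Mcm7, Gins1 and Gins4, as at 9.83% of all protein-coding genes (2 or more) and 15.0% of those with a CpG-rich 5' end. A protein-coding start on the other strand within 1 kb was found at 3 genes, Mcm4 with Prkdc, Mcm7 with Ap4m1 and Gins1 with Abhd12, and at 10.9% of all and 19.8% of those with a CpG-rich 5' end. The 5' ends of Mcm2, Mcm7 and Gins1 did not meet the CpG-rich limits. That of Mcm2 missed narrowly, with an observed over expected CpG ratio of 0.596 against a limit of 0.6, and that of Gins1 had a GC content of 37.3%, against 52.2% to 60.9% at the other 9 genes.

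Of the 39 peaks, 23 (59.0%) had the CTCF core with 2 or fewer mismatches in the 50 bp on either side of the summit, against 71.2% of all optimal peaks. The share was lowest at promoters. Of the 10 promoter peaks 3 had it, at Gins4, Mcm2 and Gins2, against 48.7% of the promoter peaks of all protein-coding genes, and of the other peaks 20 of 29 did. Counted by gene, 3 of the 10 had a core-bearing promoter peak, and 19.6% of all protein-coding genes did. Median signal was higher for closer matches. The 3 peaks with a perfect core had 142.5, 359.4 and 370.4, the 5 with 1 mismatch had a median of 337.5, the 15 with 2 mismatches 104.0 and the 12 with 3 mismatches 29.2. The medians for all optimal peaks were 228.1, 118.2, 62.2 and 42.2. In the strongest 20% 9 of 11 had the core, against 89.9% of all peaks of that strength, and the 2 that did not were those of Mcm5. In the weakest 20% 4 of 12 had it, against 47.9% of all such peaks.

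**Figure D2:**
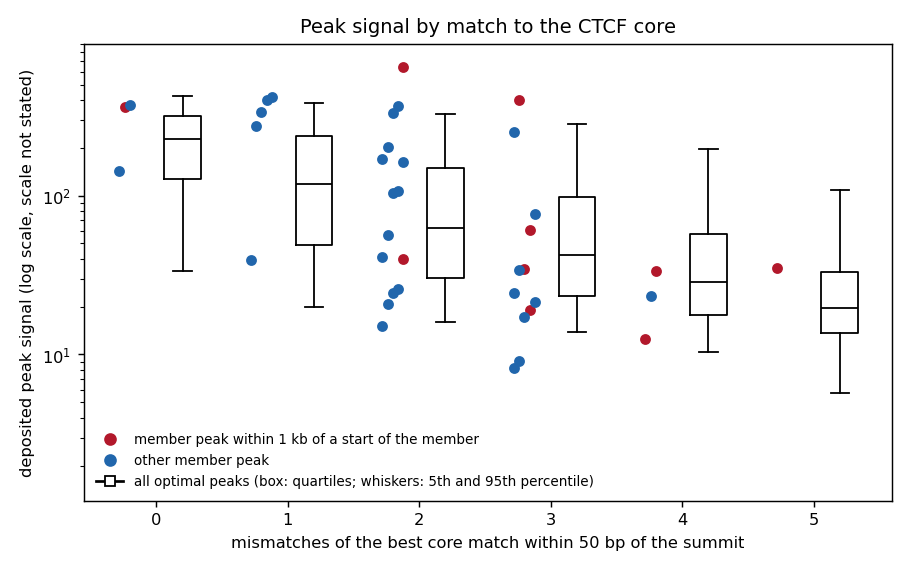
Deposited signal (vertical axis, log scale) by the number of mismatches of the best core match within 50 bp of the summit (horizontal axis). Points are the 39 peaks near the helicase genes, red within 1 kb of a start of the gene and blue elsewhere, and boxes show all optimal peaks with whiskers at the 5th and 95th percentile. The Mcm5 promoter peak (399.7) and the Mcm5 downstream peak (251.5) stand high at 3 mismatches.

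The orientation of the core was read against the direction of the gene. Of 22 peaks with a single best core, 15 had it on the strand of the helicase gene and 7 on the other. Over the windows of all protein-coding genes the share on the strand of the gene was 50.9%, with a peak counted once for each gene it lies near. At Mcm2 all 5 such cores pointed in the direction of transcription of the gene, and at Gins4 all 3 did. At Mcm6 all 3 pointed against it. Gins2 had 5 with and 2 against. Among 15 pairs of neighbouring cores within a window, 10 were tandem, 3 divergent and 2 convergent, with both convergent pairs at Gins2, 3.58 and 19.01 kb apart. Over all protein-coding windows 52.0% of such pairs were tandem, 25.7% divergent and 22.3% convergent. Peaks of 1 window share a locus and are not independent, so no test was made.

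The replicate values lay closer together at strong peaks than at weak ones. Of the 39 peaks 36 were matched in both replicate lists by a summit within 100 bp, against 97.1% of all optimal peaks. The 3 that were not all had a signal of 24.3 or less. Of the 39, 30 were in the conservative list, against 87.8% of all. Across the 11 peaks of the strongest 20% the log2 ratio of replicate 1 to replicate 2 ran from -0.25 to 0.24. Over all 36 it ran from -0.81 to 1.98, with a median of 0.10, against a median of 0.06 for all matched optimal peaks, and 23 of the 36 were higher in replicate 1. The widest ratios were at the weak Mcm2 peak 19.1 kb downstream of the 5' end (1.98) and at the weak Gins4 peak in intron 1 (1.70). Spearman's rho between replicates over the 36 peaks was 0.952, as a description over peaks that share libraries. The optimal list was made from these replicate lists, so none of these shares measures agreement independently. Repeat-masked sequence made up at least 50% of the summit region at 7 of the 39 peaks, against 18.4% of all. None of the 11 strong ones was among them, and of all peaks in the strongest 20% the share was 3.61%. Some strong ones were masked in part. The summit regions of the most alike pair, Gins2 at 18.8 and 10.4 kb upstream, were 46.5% and 30.7% masked. That of Mcm2 at 17.5 kb upstream was 38.6% masked and that of the Gins4 promoter peak 9.90%. The other strong ones had no masked bases there.

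**Figure D3:**
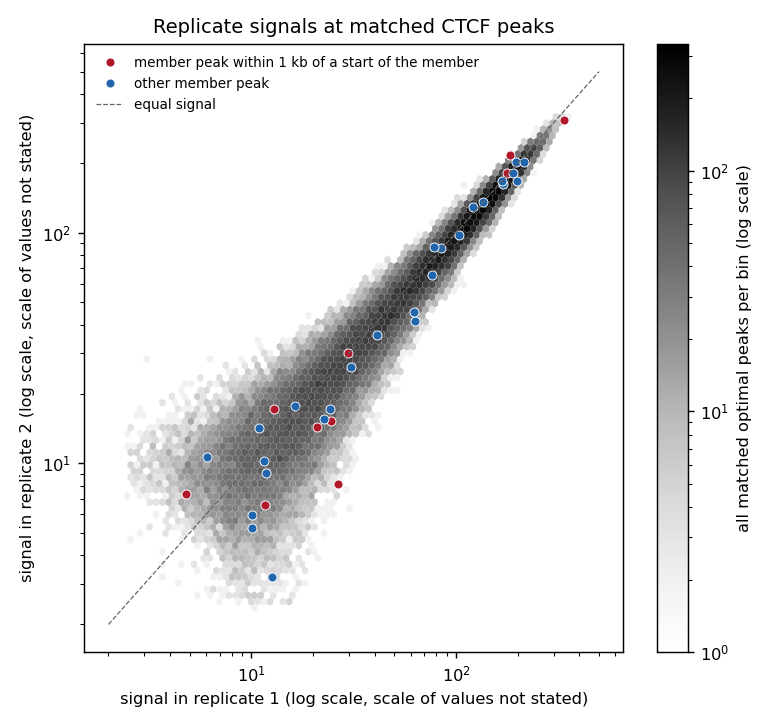
Signal in replicate 1 (horizontal axis) and replicate 2 (vertical axis), both on log scales. Coloured points are the 36 matched peaks near the helicase genes, red within 1 kb of a start of the gene and blue elsewhere, over all matched optimal peaks in grey; the dashed line marks equal signal. Strong peaks lie near the line and weak ones scatter.

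The 20 kb limit decided which peaks were counted. The farthest strong peaks inside it were that of Gins2 at 18.8 kb (330.6) and that of Mcm2 at 17.5 kb (370.4). Just outside it lay a peak 22.3 kb past the 3' end of Mcm2, with a signal of 265.2, and 1 at 23.0 kb upstream of Gins2, with 19.8. At Mcm7 the nearest peak outside was at 26.5 kb downstream (262.6) and at Gins4 at 46.5 kb downstream (301.9). Mcm4 had no further peak until 191.0 kb.

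Other genes of the replication machinery were looked at with a list of 48 in 4 classes, and 26 had a promoter peak (54.2%), against 36.2% of all protein-coding genes and 53.8% of those with a CpG-rich 5' end, a class that holds 40 of the 48. This list stood above the share of all genes and was close to that of CpG-rich ones. The helicase genes had 7 of 10, but they were picked by these signals, so their share is a description only. Among fork factors 10 of 14 had one, led by Timeless (326.2, with 163.2 in replicate 1 and 163.0 in replicate 2), which protects the fork, and by Rfc2 (306.3, near an internal start) and Rfc3 (253.8), subunits of the clamp loader. Among polymerase and primase genes 6 of 12 did. Pold1, the catalytic subunit of DNA polymerase delta, had 450.8 (233.1 in replicate 1, 218.6 in replicate 2), which lies between Gins4 and Mcm5, and Prim2 (99.4) and Pole4 (40.4, near an internal start) followed. In the list's licensing class 5 of 12 did. The highest were Mcm9 (253.9) and Orc4 (102.8), both near internal starts, and Cdt1 (93.8), 1 of the factors that load the MCM ring. Among firing genes 5 of 10 did, with Recql4 (48.5), Wdhd1 (41.6) and Dbf4 (39.8) highest. Cdc45, the remaining part of the helicase, had no promoter peak. All 48 had at least 1 peak in the gene or within 20 kb. So did 80.8% of all protein-coding genes and 95.6% of those with a CpG-rich 5' end.

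**Figure D4:**
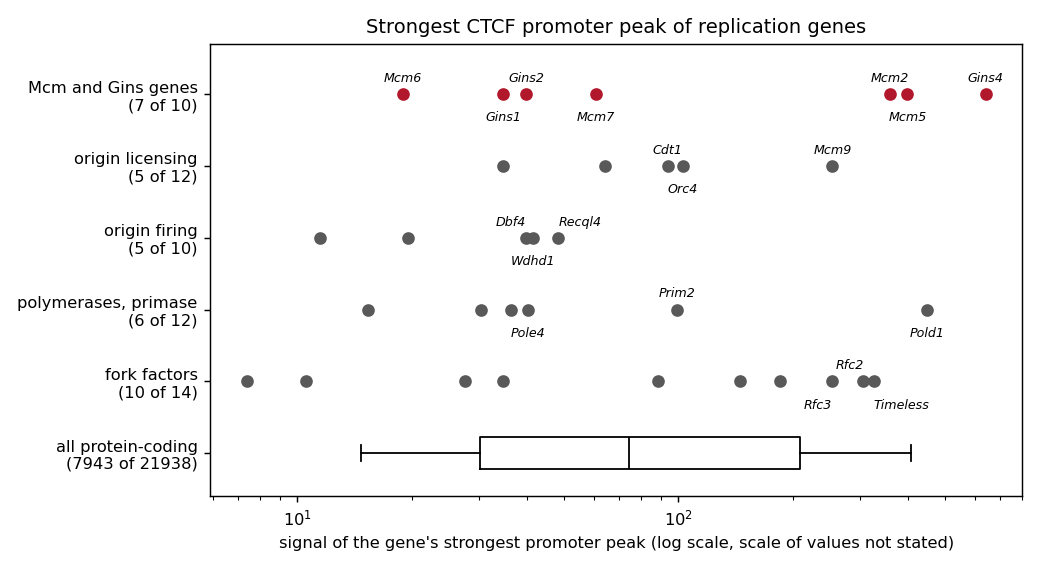
Signal of the strongest promoter peak per gene (horizontal axis, log scale) for the Mcm and Gins genes in red, for 4 classes of other replication genes in dark grey, and for all protein-coding genes as a box with whiskers at the 5th and 95th percentile; the number of genes with a promoter peak is given at each row. The red points fall into a high set (Gins4, Mcm5, Mcm2) and a low set of 4 genes.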

How the data were processed

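CTCF ChIP-seq peak lists of newborn B6NCrl liver were used as deposited, on mm10. Per the text deposited with the samples, each replicate's list came from its own alignments and a further file, and the optimal and conservative lists were made by IDR (irreproducible discovery rate) from the replicate lists and the pooled list. The signal of each peak is the authors' deposited value. The sources used here give neither its scale nor the aligner or peak caller. Depth is unknown because the files hold no counts. The control experiment named in the labels was not analysed here. Both replicate lists end at exactly 300000 peaks.

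Summits were placed on GENCODE M21 genes with Python 3.11.15, numpy 2.4.6, pandas 2.3.3 and pysam 0.24.0; figures used matplotlib 3.10.9, and the GRCm38.p6 genome was indexed with samtools 1.23.1. A promoter peak has its summit within 1 kb of any annotated start of the gene. Replicate summits within 100 bp were matched. The 14-base CTCF core was sought up to 50 bp from each summit on either strand, and the search was tested on simulated data. A CpG-rich 5' end has at least 50% GC and a CpG ratio (observed over expected) of at least 0.6 within 500 bp. The named genes are the 10 helicase genes, genes next to their peaks or to their rank, and the 3 strongest promoters of each class of replication genes; Cdc45 was named after its values were seen. Members and lists were chosen with earlier results of these data known. With 1 group there is no comparison between conditions, and no test was made. Alternatives changed the list, the promoter and window distances, the core, the matching and the replicate used.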

Additional observations from a re-analysis of the deposited data

How the results depend on the processing

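The count of helicase genes with a promoter peak stayed at 6 to 8 of 10 in the conservative list, with 5' ends alone and with promoter limits of 0.5 to 5 kb, while the share of all protein-coding genes ran from 28.3% to 56.3%. No paired analysis was possible because there is 1 group. In the 50% of peaks with the highest signal, 3 helicase genes had a promoter peak, against 18.5% of all, and 11 other replication genes did; it held 18 peaks, all 18 matched and 15 with the core, with a median signal of 301.4 and 3.21 peaks per 100 kb. The conservative list gave a median of 107.4 and 5.53 per 100 kb. With 1 mismatch allowed, 8 of the 39 peaks and 1 gene's promoter had the core. With 3 allowed, 35 peaks and 7 genes did. Among all 57197 optimal peaks the best match had 0 mismatches at 5500, 1 at 16452, 2 at 18790 and 3 at 10880. Promoter limits of 2 and 5 kb gave 5 genes with a core-bearing promoter peak. The shares of all protein-coding genes with a core-bearing promoter peak were not computed for these settings. A 50 kb window held 66 peaks, 43 with the core, at 5.69 per 100 kb. A 2 kb window held 16, 9 with the core, with a median of 39.6, at 7.99 per 100 kb. A 10 kb window gave 8.33 per 100 kb. Densities and core shares over all protein-coding genes were not computed for these windows or for the other lists. The 4.06 per 100 kb given above is for 20 kb in the optimal list and is not a like value. The strongest peaks of each replicate alone were also used, as many as the optimal list holds (57197). They gave a promoter peak at 6 to 7 helicase genes and 24 to 26 other replication genes, against 36.4% of all protein-coding genes. They also gave 33 to 39 peaks, 20 to 24 with the core, 30 to 34 matched, medians of 29.5 to 41.5, 5.89 to 6.96 per 100 kb, and 9 genes with a peak in the window. For these further counts, and for the matched and core counts in the 50% with the highest signal, shares over all peaks or genes were not computed. The median log2 ratio of replicate 1 to replicate 2 was 0.0889 with summits matched within 50 bp and 0.12 with matching by overlap, against 0.10. Depth is unknown, so weak peaks cannot be graded.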

Other observations

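RefSeq promoter windows on GRCm38.p6, placed by RefSeq's own starts, which can differ from the GENCODE starts used above (the Mcm5 window ends before the GENCODE 5' end), were matched for 6 of the 10 helicase genes, in 7 windows. Mcm4, Gins1, Gins2 and Gins4 were not matched. No optimal summit fell in any of the 7 windows, and 9.15% of all RefSeq windows held one. The windows are much narrower than the 1 kb limit used above. Those of Mcm7 run from 138171834 to 138172133 and from 138171217 to 138171516. The summits of its promoter peaks, 138172153 and 138171171, lay just outside them. Letters like the E2F site (TTTCCCGC, TTTGGCGC, TTTCGCGC or TTTGCCGC, on either strand) were present in 5 of the 7 windows, those of Mcm3, Mcm5, Mcm6, Gins3 and 1 of Mcm7, against 2.26% of 32851 promoters of the same length. The CTCF core with 2 or fewer mismatches was present in 1 of the 7, that of Mcm6, against 14.4% of those promoters, and it did not overlap the E2F-like letters. A match of letters is a description and not a site.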
